A study of Mus musculus with 7 samples.

Results

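Neutrophils carry their antimicrobial proteins in granules that are filled in order as the cells mature, and 10 genes of this program were followed in hematopoietic stem and progenitor cells with and without PROSER1. The genes were Mpo, Elane, Prtn3, Ctsg, Ms4a3, Cebpa, Cebpe, S100a8, S100a9 and Ngp. They were taken by gene symbol from a table of 48440 genes, where all 10 were found, and all 10 were among the 16251 genes that entered the tests, for which the normalized count had to average at least 10. The cells were LSK cells, which are sorted from bone marrow (BM) as negative for lineage markers and positive for Sca1 and cKit, and among which are the hematopoietic stem cells (HSCs) and the multipotent progenitors. In both groups the recipients were C57BL/6 mice irradiated with 9.5 Gy in 2 doses set 3 h apart and given BM from a donor, and LSK cells were sorted at day 77. The donors were wild-type mice (4 libraries) or PROSER1 KO mice (3 libraries), which carried a constitutive KO made with an endonuclease. The KO was not limited to blood cells in the donor, the recipients themselves were not KO animals, and no separation of donor from residual recipient cells was stated for this sort. Ages were not given in the sources used here. The labels call the libraries biological replicates without naming the animals behind each of them, so that p-values measure the spread between these libraries.

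The granule program has an early and a late part. Myeloperoxidase and the serine proteases of the azurophil granules are made first, in promyelocytes and, as transcripts, already in granulocyte-monocyte progenitors (GMPs), under transcription factors such as C/EBPα, PU.1 and MYB. Proteins of the specific granules and the cytosolic S100 proteins follow in myelocytes and later cells, where C/EBPε is required. Multipotent progenitors in the LSK gate hold transcripts of some of these genes before any granule is formed, which is called priming.

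The promoters are shown for the protease neighbours Elane and Prtn3, for Ctsg, which differed most between the groups, and for the 3 late genes, which moved together. The sequences are those of RefSeq (GRCm38.p6), 250 bases before to 50 bases after the gene start, 5′ to 3′ on the strand of the gene. Capitals mark matches on either strand to TTNNGCAA (a C/EBP motif), AGGAAG (a PU.1 motif) and AACGG (a MYB motif), and no matches overlapped one another in these windows. The start is that of RefSeq and can differ from the gene start of the GENCODE annotation given with the values below. For Prtn3 the window lies inside the longer GENCODE gene. Elane lies at chr10:79886062-79886361 (forward), Prtn3 at chr10:79879417-79879716 (forward), Ctsg at chr14:56102525-56102824 (reverse), S100a8 at chr3:90668821-90669120 (forward), S100a9 at chr3:90695672-90695971 (reverse) and Ngp at chr9:110419558-110419857 (forward).
Elane: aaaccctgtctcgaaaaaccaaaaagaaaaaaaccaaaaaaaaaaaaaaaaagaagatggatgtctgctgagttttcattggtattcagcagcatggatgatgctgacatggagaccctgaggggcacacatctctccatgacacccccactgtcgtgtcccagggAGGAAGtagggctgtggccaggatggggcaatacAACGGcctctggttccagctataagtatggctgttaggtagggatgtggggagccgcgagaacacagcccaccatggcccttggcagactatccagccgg
Prtn3: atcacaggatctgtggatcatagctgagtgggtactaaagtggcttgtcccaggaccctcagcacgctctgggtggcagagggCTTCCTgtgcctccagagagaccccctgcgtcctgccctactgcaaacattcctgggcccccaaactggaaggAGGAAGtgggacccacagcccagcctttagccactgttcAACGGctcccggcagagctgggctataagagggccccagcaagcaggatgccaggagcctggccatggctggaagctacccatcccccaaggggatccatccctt
Ctsg: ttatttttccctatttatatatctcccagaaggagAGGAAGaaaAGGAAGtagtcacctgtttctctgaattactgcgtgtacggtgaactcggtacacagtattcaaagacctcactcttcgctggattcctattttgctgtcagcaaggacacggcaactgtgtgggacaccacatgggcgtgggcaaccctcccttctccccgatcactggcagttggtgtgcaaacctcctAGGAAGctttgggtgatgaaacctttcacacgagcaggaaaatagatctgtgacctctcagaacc
S100a8: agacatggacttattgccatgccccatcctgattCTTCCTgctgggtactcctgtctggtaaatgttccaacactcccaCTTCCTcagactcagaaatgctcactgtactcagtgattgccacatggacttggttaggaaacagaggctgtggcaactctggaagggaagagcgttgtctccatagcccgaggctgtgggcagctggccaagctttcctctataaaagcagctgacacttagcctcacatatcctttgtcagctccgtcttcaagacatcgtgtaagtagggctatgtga
S100a9: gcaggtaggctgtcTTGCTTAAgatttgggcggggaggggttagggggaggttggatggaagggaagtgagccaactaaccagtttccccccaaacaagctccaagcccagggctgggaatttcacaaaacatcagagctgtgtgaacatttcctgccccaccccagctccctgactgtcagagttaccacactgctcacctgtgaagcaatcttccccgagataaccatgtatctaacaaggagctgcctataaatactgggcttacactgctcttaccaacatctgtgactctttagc
Ngp: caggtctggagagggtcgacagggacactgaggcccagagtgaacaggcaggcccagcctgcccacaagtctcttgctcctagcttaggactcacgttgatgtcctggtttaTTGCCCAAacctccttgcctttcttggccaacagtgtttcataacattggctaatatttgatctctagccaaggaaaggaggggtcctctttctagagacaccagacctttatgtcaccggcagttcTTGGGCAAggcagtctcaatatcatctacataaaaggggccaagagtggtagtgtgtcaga

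Of the 10 genes 9 had a promoter in the RefSeq table, all but Cebpe. The PU.1 motif was found in 6 of the 9 (Mpo, Elane, Prtn3, Ctsg, Ms4a3 and S100a8) and in 35.4% of all 32851 promoters of this length. The MYB motif was found in 3 of the 9 (Elane, Prtn3 and Cebpa) and in 17.4% of all promoters. The C/EBP motif was found in 3 of the 9 (Ms4a3, S100a9 and Ngp) and in 10.8% of all promoters. Elane and Prtn3 had the same pair of motifs in the same order, with AGGAAG beginning 84 bases before the RefSeq start of Elane and 94 bases before that of Prtn3, and AACGG beginning 50 and 55 bases before it. Prtn3 had 1 further PU.1 match, beginning 167 bases before its start. Ctsg had 3 PU.1 matches and neither of the other motifs, and Ngp was the only one of the 9 with a pair of C/EBP matches, one of them beginning 11 bases before its start. A match is a run of letters and not a measured binding site.

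Read pairs were counted per gene by the authors and divided by 1 size factor per library, and these normalized counts are the level given for each gene below. Depth on genes was 33143619 to 42742329 read pairs per wild-type library and 37140168 to 45140743 per PROSER1 KO library. A count of 0 allows up to 3 read pairs, which is a normalized count of 2.54 to 3.48 depending on the library, and this limit and the counting intervals below cover counting error only. The targeted gene, Proser1, was at 2019.4, 2153, 2103 and 2077 (wild-type replicates 1 to 4) against 2464, 2359 and 2338 (KO replicates 1 to 3), a log2 fold change of 0.19 (adjusted p = 0.204 from limma). Its mRNA was not lower in the libraries labelled PROSER1 KO, so that every direction given below rests on the labels. Which stretch of the gene the KO removes was not given in the sources used here, and a count over the whole gene need not report on it. Of the genes behind the gate, Kit had normalized counts of 25535 to 32357 and Ly6a (Sca1) of 3961 to 6822 over the 7 libraries.

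None of the 10 genes passed the threshold for differential expression between PROSER1 KO and wild-type LSK cells. The threshold was a Benjamini-Hochberg adjusted p under 0.05 over all genes tested and a fold change above 1.5 in limma, which 42 genes passed (0.258% of those tested). The count was also 0 of 10 with edgeR (0.246% of all genes called) and with DESeq2 (0.873%). At an unadjusted p under 0.05 it was 1 of 10, where 9.73% of all genes stood, and the libraries of the groups did not overlap for 1 of 10, where this held for 10% of all genes. That gene was Ctsg in each case, and the groups were apart with PROSER1 KO lower for 4.83% of all genes. The median log2 fold change of the 10 genes was -0.0047, beside 0.0015 for all tested genes, and 5 of the 10 fitted log2 fold changes were above 0. Because these are bulk libraries, a difference in the number of cells that express a gene and a difference in RNA per cell cannot be told apart.

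**Figure D1:**
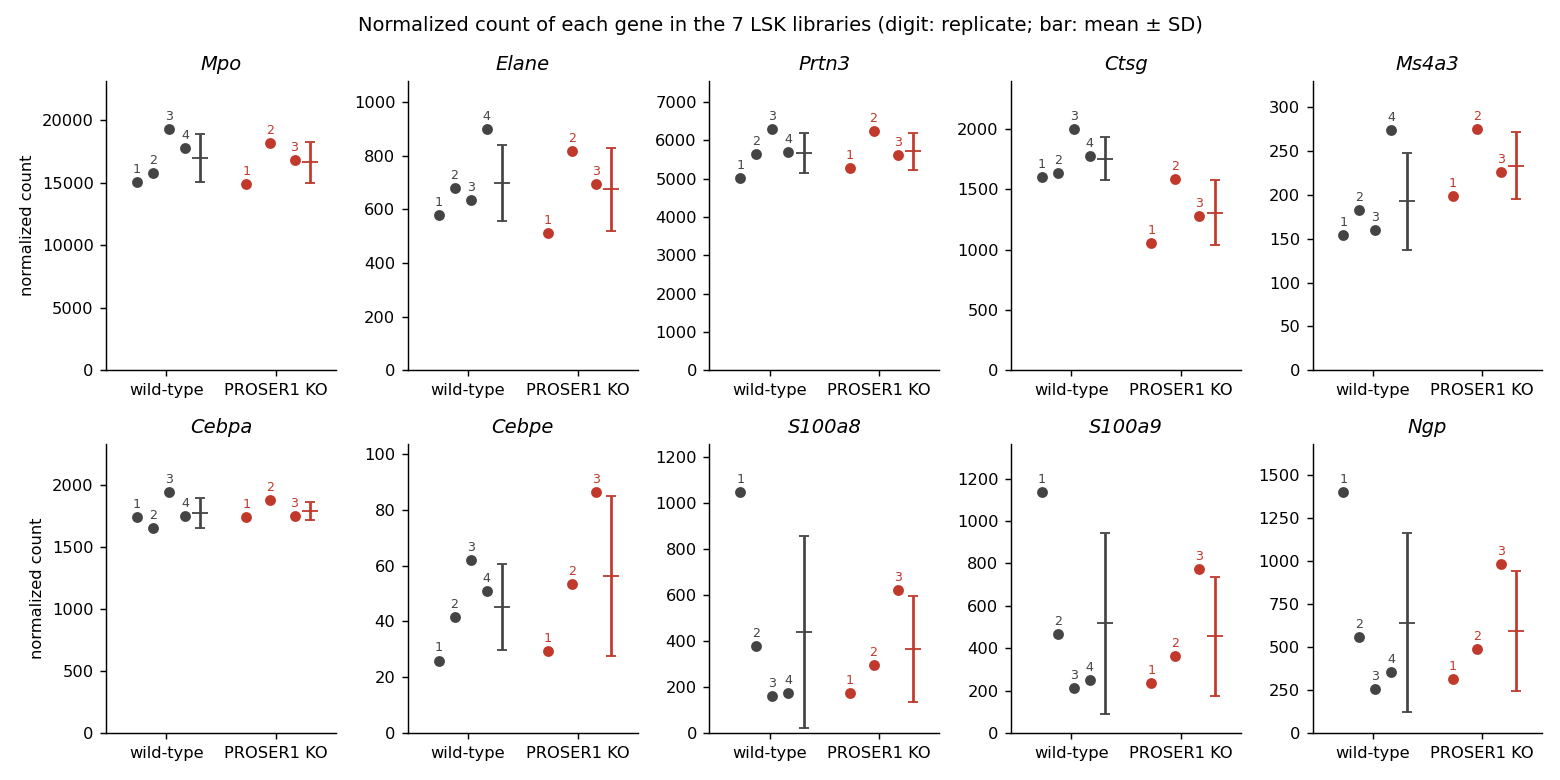
Normalized count of each of the 10 genes (vertical axes, each starting at 0) in the wild-type (grey) and PROSER1 KO (red) libraries, with the replicate number above each point and the mean ± SD beside it. The groups overlap in every panel except that of Ctsg, and S100a8, S100a9 and Ngp are highest in wild-type replicate 1 and PROSER1 KO replicate 3.

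Of the azurophil granule genes, Mpo, Prtn3 and Elane showed no detectable difference between the groups, and their intervals excluded a fold change of 1.5. Mpo encodes myeloperoxidase, the heme enzyme that makes hypochlorous acid, and lies on chromosome 11 from 87793581 to 87804413 (forward strand). The wild-type libraries, here and below in the order of their replicate numbers, had 15049, 15789, 19269 and 17784 normalized counts, against 14897, 18155 and 16779 in the KO libraries. The KO libraries spanned almost the same range as the wild-type libraries, with a mean of 16973 ± 1918 (SD, n = 4) in wild-type against 16610.3 ± 1636 (SD, n = 3). The log2 fold change was -0.03 (95% confidence interval -0.24 to 0.18, adjusted p = 0.952 from limma), an interval of 0.846 to 1.14 on the linear fold scale. Reads shared with Gm11505, which overlaps Mpo on the other strand, are uncertain, since the library kit keeps the strand but the setting used in counting was not stated.

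Prtn3 encodes proteinase 3, a serine protease and the main autoantigen of some vasculitides, and lies 3.07 kb from Elane on chromosome 10 (79874476 to 79883174, forward strand). The wild-type libraries had 5015, 5636, 6287 and 5691 normalized counts, against 5283, 6243 and 5616 in the KO libraries. All 3 KO values lay within the wild-type range (log2 fold change 0.02, 95% confidence interval -0.17 to 0.20, adjusted p = 0.972 from limma). Plppr3 overlaps Prtn3 on the other strand, with the same uncertainty as for Mpo.

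Elane encodes neutrophil elastase, whose mutations cause congenital neutropenia, and lies on chromosome 10 from 79886247 to 79888215 (forward strand). It stood at 578, 682, 636 and 899.6 normalized counts in the wild-type libraries, against 512, 817 and 695 in the KO libraries. The lowest value was in PROSER1 KO replicate 1 and the highest in wild-type replicate 4, with the other libraries mixed between them. The log2 fold change was -0.06 (95% confidence interval -0.46 to 0.35, adjusted p = 0.952 from limma), so that a fold change of 1.5 in either direction lay outside the interval. Although the genes are neighbours, their ratio was not fixed, and Elane stood at 9.70% of the normalized count of Prtn3 in PROSER1 KO replicate 1 and at 15.8% in wild-type replicate 4, the lowest and the highest of the 7 libraries.

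Ctsg was the one gene of the 10 whose groups did not overlap, and it was lower in PROSER1 KO. It encodes cathepsin G, a chymotrypsin-like protease of the azurophil granule, and lies on chromosome 14 from 56099881 to 56102574 (reverse strand), with no annotated gene overlapping it. Normalized counts were 1604, 1637, 1998 and 1778 in the wild-type libraries against 1050.5, 1586 and 1282 in the KO libraries. The highest KO library, replicate 2, was just under the lowest wild-type library, replicate 1. The wild-type mean was 1754 ± 179 (SD, n = 4) against 1306 ± 268 (SD, n = 3) in the KO libraries. This is a log2 fold change of -0.44 (standard error 0.13, 95% confidence interval -0.73 to -0.15) or a fold of 1.36.

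The adjusted p-values of the tests differed on Ctsg. The adjusted p was 0.303 in limma (unadjusted p = 0.0079) and 0.330 in edgeR. The two-sided exact permutation test over the 7 libraries gave an unadjusted p of 0.0286, the smallest value that 4 against 3 libraries allow. That p follows largely from the groups being apart, as they were for 10% of all genes, and is no further evidence. DESeq2 gave an adjusted p of 0.0260 (1.65% of the 18903 genes it tested were under 0.05) with a fold of 1.34, under the 1.5 required of a call. Without PROSER1 KO replicate 1 the log2 fold change was -0.29 and without PROSER1 KO replicate 2 it was -0.59, with adjusted p-values of 0.475 and 0.139 from limma. Ctsg stayed lower in PROSER1 KO in every fit that left out 1 library.

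Relative to Mpo, the groups stood farther apart. Ctsg stood at 10.7%, 10.4%, 10.4% and 9.999% of the normalized count of Mpo in wild-type replicates 1 to 4 and at 7.05%, 8.73% and 7.64% in PROSER1 KO replicates 1 to 3. The wild-type libraries thus lay within 1 percentage point of each other, and all KO libraries lay under them (two-sided exact permutation test, p = 0.0286). This ratio was formed after the values of both genes had been seen and rests on the same 7 Ctsg values, so that its p is no further evidence. The separation also depended on the divisor. Relative to Elane the groups overlapped, as wild-type replicate 4 (Ctsg 1778, Elane 899.6) stood lower than PROSER1 KO replicate 1 (Ctsg 1050.5, Elane 512). Relative to Prtn3 the groups did not overlap.

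**Figure D2:**
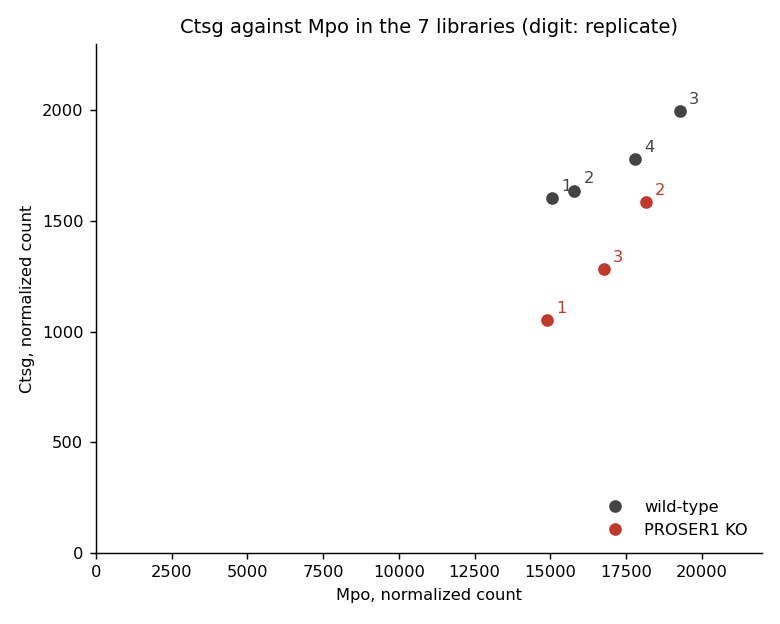
Normalized count of Ctsg (vertical axis) against that of Mpo (horizontal axis), both from 0, in the 4 wild-type (grey) and 3 PROSER1 KO (red) libraries, with replicate numbers. At like levels of Mpo the PROSER1 KO libraries lie lower, at 7.05% to 8.73% of Mpo beside 9.999% to 10.7% in wild-type.

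Ms4a3 and the C/EBP factors, which mark or drive the step toward GMPs and granulocytes, did not separate the groups. Ms4a3 encodes a tetraspan membrane protein used as a marker of GMPs and lies on chromosome 19 from 11629496 to 11640851 (reverse strand). The wild-type libraries had 154, 183, 159.8 and 274 normalized counts, against 199, 275 and 227 in the KO libraries. All 3 KO libraries lay above wild-type replicates 1 to 3, but wild-type replicate 4 was as high as the highest of them (log2 fold change 0.30, 95% confidence interval -0.18 to 0.79, adjusted p = 0.693 from limma). The value without that library was 0.49, and the interval reached a fold of 1.72, so that a fold change of 1.5 was not excluded for this gene.

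Cebpa encodes C/EBPα, the factor without which GMPs are not formed, and lies on chromosome 7 from 35119293 to 35121928 (forward strand), overlapped on the other strand by Gm45091. It stood at 1741, 1651, 1944 and 1753 normalized counts in the wild-type libraries, against 1744, 1876 and 1748 in the KO libraries. It was the steadiest of the 10 genes, with a fold of 1.18 between the highest and the lowest library. The log2 fold change was 0.02 (95% confidence interval -0.13 to 0.16, adjusted p = 0.965 from limma).

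Cebpe encodes C/EBPε, the factor of the late granule genes, and lies on chromosome 14 from 54710360 to 54712174 (reverse strand). It had the lowest level of the 10 genes, with normalized counts of 26.0, 41.5, 62.1 and 51.0 in the wild-type libraries against 29.2, 53.3 and 86.4 in the KO libraries. These rest on 27 read pairs in wild-type replicate 1 and 90 in PROSER1 KO replicate 3. The range of the KO libraries enclosed most of the wild-type range, and the log2 fold change of 0.25 had a 95% confidence interval of -0.68 to 1.18 (adjusted p = 0.897 from limma), so that neither a 1.5-fold rise nor a 1.5-fold fall was excluded.

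**Figure D3:**
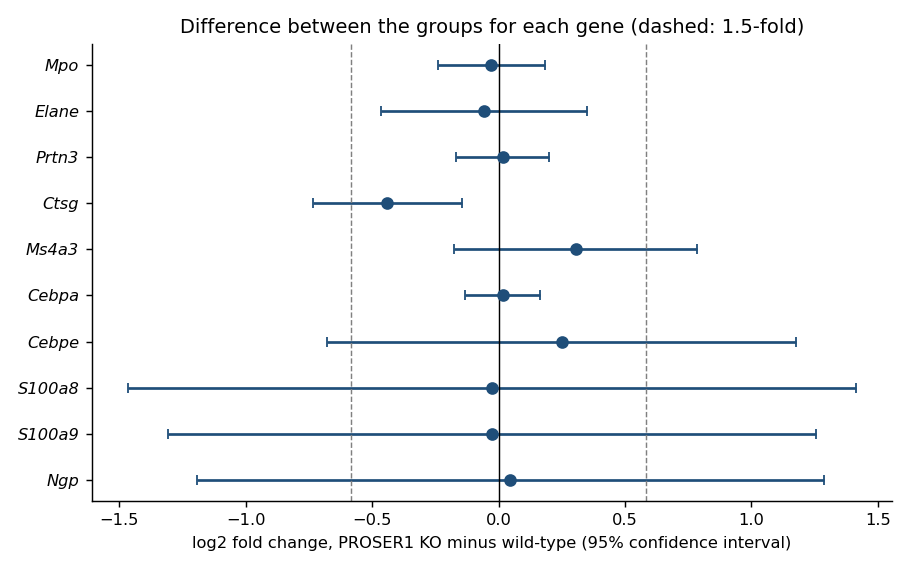
Log2 fold change of each gene, PROSER1 KO minus wild-type, with its 95% confidence interval from limma (points and bars), and dashed lines at a fold of 1.5. The intervals of Mpo, Prtn3, Cebpa and Elane lie within the dashed lines, that of Ctsg lies below 0 and crosses one of them, and those of S100a8, S100a9 and Ngp reach from below -1.19 to above 1.25.

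The late genes S100a8, S100a9 and Ngp showed no detectable difference between the groups but a large one between libraries of the same group. S100a8 and S100a9 encode the 2 chains of calprotectin, an abundant cytosolic protein of neutrophils, and Ngp encodes neutrophilic granule protein, a cystatin-related protein of the specific granules. S100a8 (chromosome 3, 90668978 to 90670035, forward strand) had normalized counts of 1047, 379, 159.8 and 173 in the wild-type libraries against 175, 294 and 621 in the KO libraries. The highest library, wild-type replicate 1, was 6.55 times the lowest, wild-type replicate 3, and both belong to 1 group. Counting error did not cover this, as the 95% Poisson intervals of these normalized counts were 986 to 1111 and 134 to 189.

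S100a9 lies 22.6 kb from S100a8, from 90692632 to 90695721 on the reverse strand. It had 1138, 468, 214 and 249 normalized counts in the wild-type libraries against 234, 364 and 772 in the KO libraries, a span of 5.32-fold. The same libraries were high and low as for S100a8. Ngp, on another chromosome (9, 110419747 to 110423012, forward strand), had normalized counts of 1400.1, 554, 256 and 351 in the wild-type libraries against 313, 486 and 984 in the KO libraries, a span of 5.46-fold. S100a9 and Ngp put the 7 libraries in the same order, led by wild-type replicate 1, PROSER1 KO replicate 3, wild-type replicate 2 and PROSER1 KO replicate 2, and S100a8 differed from it only by exchanging wild-type replicate 4 and PROSER1 KO replicate 1.

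Because of this spread the comparison of the groups was imprecise for the late genes. The log2 fold changes were -0.03 for S100a8, -0.03 for S100a9 and 0.05 for Ngp, with adjusted p-values of 0.993, 0.993 and 0.988 from limma. Their 95% confidence intervals were -1.47 to 1.41, -1.31 to 1.26 and -1.19 to 1.29, so that 2-fold changes in either direction were not excluded (0.362 to 2.66 for S100a8). Single libraries turned the direction. Without wild-type replicate 1 the log2 fold changes were 0.54, 0.46 and 0.53, and without PROSER1 KO replicate 3 they were -0.51, -0.49 and -0.40.

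Over the 7 libraries the 3 late genes rose and fell in near proportion. Pearson's r on log2(normalized count + 1) was 0.998 for S100a8 with S100a9, 0.991 for S100a8 with Ngp and 0.995 for S100a9 with Ngp, and Spearman's rho was 0.964, 0.964 and 1. The exact permutation p of r was 0.000397, 0.000397 and 0.000198, and 0.00595 for each after Benjamini-Hochberg adjustment over the 45 pairs of the 10 genes. The adjusted permutation p of rho was 0.0417, 0.0417 and 0.0179. Without wild-type replicate 1 and PROSER1 KO replicate 3, the libraries farthest from the median, r was 0.994, 0.956 and 0.974. The normalized count of S100a9 was 1.09 to 1.44 times that of S100a8, and that of Ngp 1.34 to 2.03 times.

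The azurophil genes did not share this profile. Their r with the late genes lay between -0.57 and -0.11 over 12 pairs, and among themselves between 0.51 and 0.91 over 6 pairs, and no pair outside the late genes is used here as a result. Wild-type replicate 1, the highest library for the late genes, was the lowest wild-type library for Mpo, Prtn3, Elane and Ctsg.

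**Figure D4:**
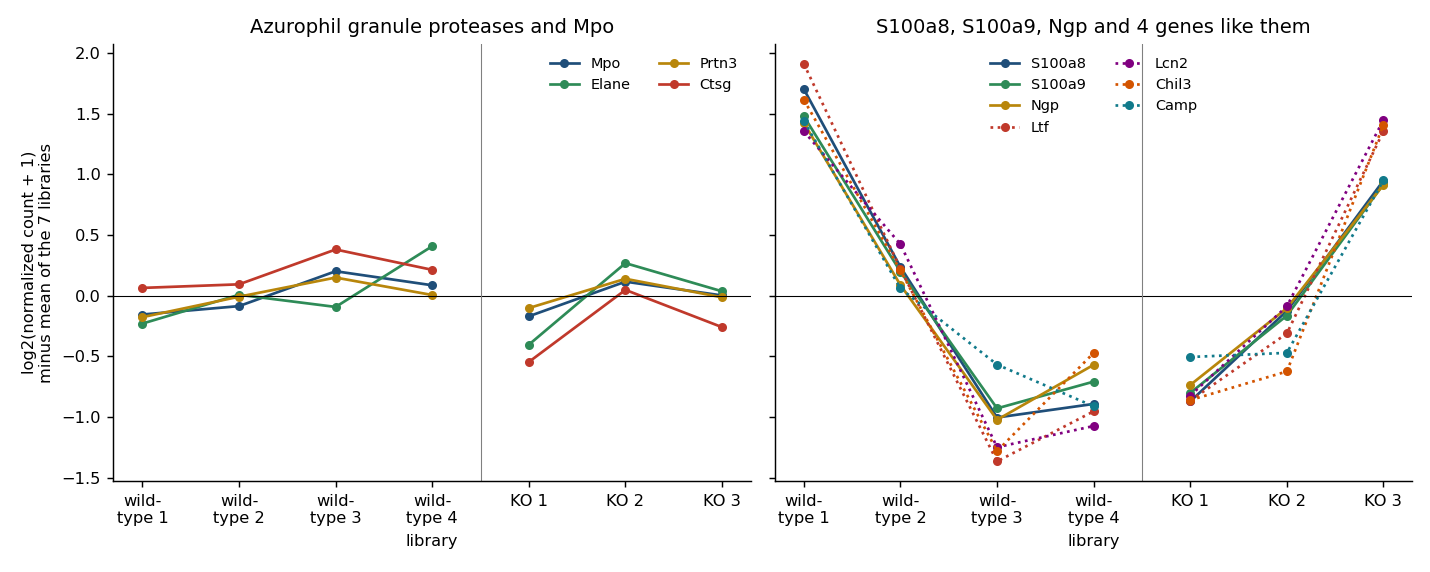
Log2(normalized count + 1) of each gene minus its mean over the 7 libraries (vertical axis), for the azurophil genes (left) and for S100a8, S100a9 and Ngp with Ltf, Lcn2, Chil3 and Camp (right, dotted), in the 4 wild-type and 3 PROSER1 KO (KO) libraries; lines join the values of 1 gene and imply no order. The late genes peak in wild-type replicate 1 and PROSER1 KO replicate 3, while the azurophil genes stay within 1 unit of their mean.

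Among 13036 genes with a mean of at least 50, the 5 whose profile over the 7 libraries was most like the mean of S100a8, S100a9 and Ngp were Ltf (r = 0.995), Lcn2 (0.970), Chil3 (0.965), Ier5l (0.962) and Camp (0.959). Ltf (lactoferrin), Lcn2 (lipocalin 2, which binds bacterial siderophores) and Camp (cathelicidin) are proteins of the specific granules, and Chil3 encodes a chitinase-like protein of neutrophils and macrophages. Ltf had normalized counts of 1077, 334, 110.3 and 147 in the wild-type libraries against 156, 230.2 and 734 in the KO libraries, with a log2 fold change of 0.11 (adjusted p = 0.979 from limma). Its span, 9.76-fold, was wider than that of any of the 10 genes. The 5 genes most like the mean of Mpo, Elane, Prtn3 and Ctsg were Aldoc (0.970), Get1 (0.967), Xrcc5 (0.958), Apln (0.957) and Hnrnpr (0.953), none of them known as a granule gene. Their spans between libraries differed, from 9129.9 to 10069 normalized counts for Hnrnpr and from 81.4 to 149.5 for Apln. These likenesses rest on 7 points that share their libraries and are given as a description.

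The summed level of a list of mature neutrophil markers was highest in the same libraries as the late genes, but not all of its members were. Of the 11 markers listed 9 were tested, 0 were called, and the summed normalized count of the list was 2380, 1061, 764 and 729 in the wild-type libraries against 857, 999 and 2024 in the KO libraries, with Ltf, Lcn2 and Camp, already given as most like the late genes, making up much of it. Others went differently. Cxcr2, a chemokine receptor, had 81.7, 52.3, 94.3 and 117.1 normalized counts in the wild-type libraries against 93.9, 67.7 and 49.9 in the KO libraries, lowest where the late genes were second highest, and Itgam, an integrin chain, lay between 294 and 371. Ly6g, the surface antigen that defines mature mouse neutrophils, had normalized counts of 16.3, 1.80, 0 and 0 in the wild-type libraries against 3.13, 11.8 and 3.84 in the KO libraries, at or near the limit of 3 read pairs in 5 of the 7 libraries. Stfa2l1 was under that limit in all 7. Ly6g was highest in wild-type replicate 1, but PROSER1 KO replicate 3, the next highest for the late genes, had 3.84. The part of such cells in the late gene values was not tested.

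How far the spread set the late genes apart could be read against all genes. The SD within groups on the log2 scale was 1.13 for S100a8, 1.01 for S100a9 and 0.98 for Ngp, beside a median of 0.13 for all tested genes, and stood at percentiles 98.0, 97.1 and 96.8. That of Cebpe was 0.63 (percentile 90.5) at a far lower count. Those of Ms4a3, Elane and Ctsg were 0.33, 0.30 and 0.22 (percentiles 74.4, 72.7 and 64.9). Mpo, Prtn3 and Cebpa, at 0.15, 0.13 and 0.08, were at percentiles 55.2, 48.4 and 28.3.

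**Figure D5:**
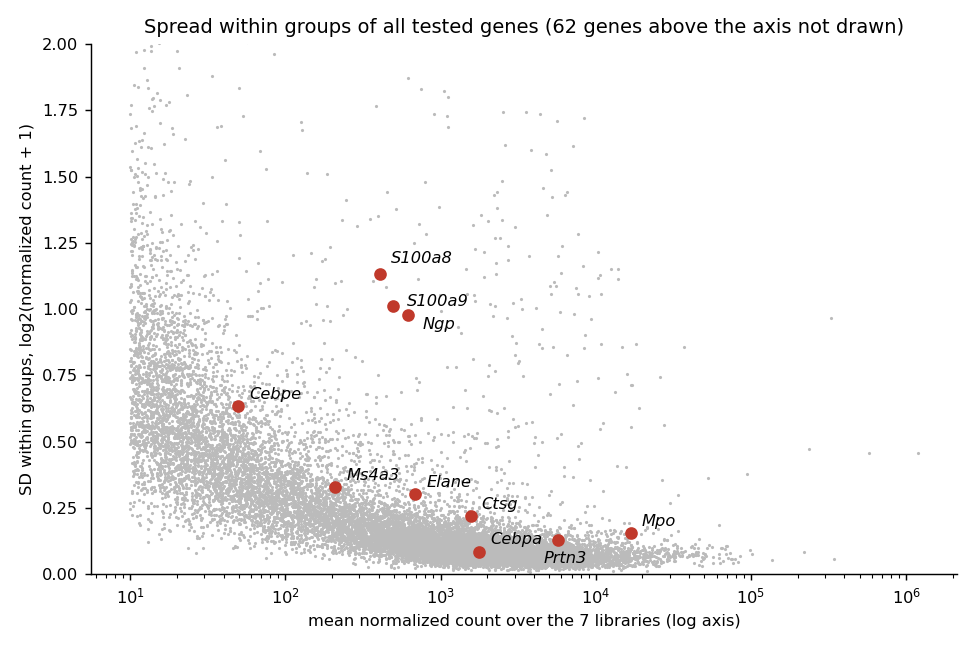
SD within groups of log2(normalized count + 1) (vertical axis) against the mean normalized count (horizontal log axis) for all 16251 tested genes (grey) and the 10 genes described (red). S100a8, S100a9 and Ngp stand at 0.98 to 1.13 (percentiles 96.8 to 98.0 of all tested genes), while Mpo, Prtn3 and Cebpa stand at 0.08 to 0.15.

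Levels of different genes were compared per kilobase of exon. The median over the 7 libraries was 4901 normalized counts per kb for Mpo, 3254 for Prtn3, 1553 for Ctsg, 697 for S100a9, 693 for Elane, 663 for Cebpa, 424 for S100a8, 397 for Ngp, 106 for Ms4a3 and 41.1 for Cebpe. Mpo lay above Prtn3, Prtn3 above Ctsg, Ngp above Ms4a3 and Ms4a3 above Cebpe with no overlap of their ranges. The other neighbours in this order, from Ctsg to Ngp, had ranges that overlapped over the libraries, and these pairs of neighbours are not ordered by their ranges. Some genes farther apart in that stretch were. Ctsg (1017 to 1934 per kb) lay above Elane (521 to 914) and Cebpa (627 to 737). S100a9 lay above S100a8 within each library, although their ranges overlapped. With the longest transcript as the length instead of all exons, 3 of the 10 genes changed their place, all within that stretch.

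The genes around the 10 in the granulocyte program were not called by limma or edgeR, DESeq2 called 1 of them (Adam8), and counts of calls below are those of limma. The lists of these genes also hold the 10 genes themselves. Of 17 tested genes of the azurophil granule and its biogenesis, 0 were called and the median log2 fold change was -0.02. At an unadjusted p under 0.05 from limma 2 were lower (4.74% of all genes), Ctsg itself and Calr. Besides Ctsg, the largest differences were -0.17 for Calr (calreticulin, the chaperone that Mpo needs to fold; adjusted p = 0.463 from limma, groups apart), 0.13 for Lyz2 (lysozyme; 0.604) and -0.08 for Hexa (a lysosomal hexosaminidase; 0.697). The members of this list that were not among the 10 genes summed to 98671 to 101816 normalized counts in wild-type and 91544 to 101884 in PROSER1 KO.

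Of 16 tested genes of the specific and gelatinase granules, 0 were called and the median log2 fold change was 0.14. At an unadjusted p under 0.05 from limma 0 were higher and 2 were lower (4.74% of all genes), Adam8 and Pglyrp1. Pglyrp1, named outside the rule for this, had normalized counts of 356, 325, 370 and 409 in the wild-type libraries against 284, 264 and 281 in the KO libraries. Its groups did not overlap (log2 fold change -0.40, adjusted p = 0.259 from limma). Adam8, a membrane metalloprotease, had normalized counts of 537, 363, 338 and 289 in the wild-type libraries against 258, 130.3 and 169.9 in the KO libraries. The groups did not overlap, with a log2 fold change of -1.05 and an adjusted p of 0.195 in limma, but DESeq2 called it (log2 fold change -1.04, adjusted p = 0.00104). The collagenase Mmp8 (0.86, adjusted p = 0.834 from limma), the gelatinase Mmp9 (1.09, 0.625) and the ficolin Fcnb (0.85, 0.724) had higher fitted values in PROSER1 KO with overlapping groups, and Mmp8 ranged from 2.09 to 53.8 normalized counts within PROSER1 KO alone.

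Of 17 cytosolic and surface genes of late neutrophils 10 were tested and 0 were called, with a median of 0.12. Padi4, which citrullinates histones in neutrophil extracellular traps, had normalized counts of 3699, 4021, 4280.4 and 4162 in the wild-type libraries against 3121, 3337 and 3190.4 in the KO libraries. It did not share the profile of S100a8, S100a9 and Ngp, as wild-type replicate 1, their highest library, was its lowest wild-type library. All KO libraries were lower (log2 fold change -0.33, adjusted p = 0.0671 from limma). Elsewhere this p was 0.0859 in edgeR, 0.0177 in limma with robust variance estimates, 0.0486 without wild-type replicate 1 and 0.000108 in DESeq2, with a fold under the 1.5 required of a call in each. The other genes with the largest differences were Retnlg (1.73, adjusted p = 0.717), Trem1, a receptor that amplifies inflammation (0.67, 0.616), and Clec4d, a C-type lectin (0.29, 0.654), all with overlapping groups. Il1b and Stfa1 were at or under the limit of 3 read pairs in all 7 libraries, as was Stfa2l1.

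Of 19 granulocyte transcription factors 0 were called and 0 had an unadjusted p under 0.05, with a median log2 fold change of -0.00021. The largest differences were those of Klf5 (-0.46, adjusted p = 0.724 from limma), Trib1, a pseudokinase that promotes the degradation of C/EBPα (-0.37, 0.678), Klf4 (-0.37, 0.845) and Egr1 (-0.28, 0.909). Klf4 and the immediate early gene Egr1 were highest in wild-type replicate 1, the library that was also highest for the late genes, at normalized counts of 453 and 2871. They did not share the late profile, as PROSER1 KO replicate 3, second highest for the late genes, was the lowest KO library for both (132 and 580). Spi1, which encodes PU.1, and Gfi1, a repressor needed for neutrophils, had normalized counts of 3094 to 3668 and 1629 to 2042 over the 7 libraries. Their values were named outside the rule for named genes because their motif or role is described here.

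Of 25 tested genes of GMP priming 0 were called, and the median was 0.03. At an unadjusted p under 0.05 from limma 3 were higher and 1 was lower (5% and 4.74% of all genes). The lower one was Ctsg again and no further gene. Csf1r, the receptor of macrophage colony-stimulating factor, had normalized counts of 592, 424, 511 and 631 in the wild-type libraries against 870.0, 657 and 708 in the KO libraries. The groups did not overlap (log2 fold change 0.47, adjusted p = 0.334 from limma). Fcgr3, an Fc receptor (0.43, 0.697), and Ly6c2, a surface antigen of monocytes and GMPs (-0.41, 0.734), had overlapping groups. The medians of all 5 lists stood beside 0.0015 for all tested genes.

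Among 12 lists of cell type markers 0 genes were called by limma or edgeR, and 1 (Mcpt8, of the mast cell and basophil list) by DESeq2. The median log2 fold changes were -0.0034 for long-term HSC, -0.0089 for lymphoid-primed progenitor, 0.32 for mature neutrophil, 0.17 for monocyte and macrophage, -0.25 for eosinophil, -0.31 for mast cell and basophil, 0.05 for erythroid, 0.45 for megakaryocyte, 0.21 for B-lineage, -0.25 for plasma cell, 0.02 for T and innate lymphoid and 0.09 for plasmacytoid dendritic cell markers. Ms4a6c, of the monocyte list, had the smallest adjusted p of these lists (log2 fold change 0.51, adjusted p = 0.0862 from limma) with groups that did not overlap. Its adjusted p was 0.0906 in edgeR and 0.000144 in DESeq2, where its fold was under 1.5. The plasma cell markers summed to normalized counts of 1530960 to 3719970 in wild-type and 1697530 to 2638670 in PROSER1 KO, which are genes that a gate on LSK cells is meant to leave out.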

How the data were processed

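RNA-seq of 4 wild-type and 3 PROSER1 KO LSK libraries was used, and groups were taken from the labels. Per the labels and methods, the authors used Trimmomatic for trimming, STAR for mapping (mm10), featureCounts for read pairs per gene and DESeq2 for size factors, and the deposited values are this normalized signal (normalized counts). Divided by the step of its library, 100% of deposited values were whole read pairs within 0.01. The 685 genes with no symbol, at most 0.135% of read pairs, were kept, and 0 columns belonged to other samples.

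Groups were compared with limma 3.58.1 (R 4.3.3; lmFit, eBayes with trend) on log2(normalized count + 1) for the 16251 genes whose mean reached 10, a scale that understates fold changes of low genes. A call needed an adjusted p under 0.05 over all genes tested and a fold change above 1.5. The authors tested differential expression with DESeq2 at this same threshold, so that limma as the main test here departs from theirs. Adam8 and Mcpt8 passed it with DESeq2. edgeR 4.0.16 and DESeq2 1.42.0 on recovered read pairs were alternatives, beside other pseudocounts, filters, variance settings and normalizations, a replicate block and each library left out. Intervals are limma's, and those of read pairs are exact Poisson intervals. The scripts were tested on simulated data. Replicates differed by more than sampling noise (chi-square over its degrees of freedom at least 27.8).

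The 10 genes, the 5 lists of related genes, the 12 marker lists and the motifs were chosen with earlier results of these data known. Named genes were the 10, up to 4 genes of a list with the largest differences among those tested (every gene called, had there been any), the 5 most like the azurophil and the late genes over the libraries, Proser1, Kit and Ly6a. Positions and exon lengths come from GENCODE M21 (GRCm38), the build of the table. Ratios between genes were chosen after values had been seen.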

Additional observations from a re-analysis of the deposited data

Results flagged for a closer look

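The 59 genes looked at were those named with values or drawn on here, other than Pglyrp1, Ccr2, C1qb and C1qc. Of these, 8 had a wild-type library far from the other wild-type libraries by Dixon's test at the 95% level. Chance would give this for about 1 in 20 independent genes with normally distributed values. Here normalized counts were used, some of them resting on few read pairs, and some of the genes moved together. The number flagged can therefore not be set against that rate. The test was applied only to the group of 4. Lyz2 (lysozyme) was lowest in wild-type replicate 4, at a normalized count of 4070.2 beside 4805 to 4884 in the other wild-type libraries. Among the wild-type libraries Fcnb was highest in replicate 1, at 40.4 beside 6.96 to 9.20, and in PROSER1 KO it reached 40.7 in replicate 1. Cd177, a surface glycoprotein of neutrophils, was also highest among them in replicate 1, at 114 beside 25.5 to 37.0, and in PROSER1 KO it reached 115 in replicate 3. Ly6g was likewise highest in wild-type replicate 1, at 16.3 beside 0 to 1.80. Among the wild-type libraries Itgam was highest in replicate 3, at 366.7 beside 294 to 301, and in PROSER1 KO it reached 371 in replicate 1. Spi1 (PU.1, a myeloid transcription factor) was highest in wild-type replicate 3 too, at 3668 beside 3094 to 3174. The values of Stfa2l1, at 1.92 in wild-type replicate 1 beside 0 in the rest of its group, and of Il1b, at 0 in wild-type replicate 2 beside 0.962 to 1.16, were within the limit of 3 read pairs. S100a8, S100a9 and Ngp, also highest in wild-type replicate 1, were not among the 8.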

How the results depend on the processing

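The 10 genes had 0 calls under every alternative run. The number of genes called among all tested was 42, with 17 without the trend, 80 with robust variance estimates, 165 with DESeq2, and 23 to 42 when 1 library was left out (23 without PROSER1 KO replicate 2). Of the listed genes DESeq2 called 2 (Adam8 and Mcpt8), and leaving out 1 library gave 0 to 1 (Ms4a6c, without wild-type replicate 3). The median log2 fold change of the 10 genes ranged from -0.11 to 0.25 with 1 library left out and was 0.25 without PROSER1 KO replicate 1. The order per kilobase changed for 3 genes with the longest transcript. A minimum mean of 50 removed Cebpe, which then had no value.

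Same-numbered replicates of the groups did not visibly deviate together (correlations 0.023, 0.058 and -0.11, beside -0.13 to 0.14 for pairs with unlike numbers). With so few libraries this cannot settle whether same-numbered libraries were handled together, which the labels do not state. With a replicate block, in which wild-type replicate 4 has no partner and no weight, 35 genes were called, 0 of the 10 among them, and the log2 fold change turned to 0.072 for Elane, -0.14 for Ngp, -0.20 for Ltf and -0.013 for Ier5l. With edgeR it turned to -0.11 for Ngp, -0.17 for Ltf and -0.010 for Ier5l, and with DESeq2 to -0.11, -0.16 and -0.012. The cause was not tested.

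Leaving out 1 library turned the direction of values near 0, which then ranged from -0.096 to 0.047 for Mpo, -0.21 to 0.13 for Elane, -0.050 to 0.070 for Prtn3, -0.019 to 0.061 for Cebpa, -0.12 to 0.65 for Cebpe, -0.51 to 0.54 for S100a8, -0.49 to 0.46 for S100a9, -0.40 to 0.53 for Ngp, -0.54 to 0.76 for Ltf, -0.32 to 0.82 for Lcn2, -0.76 to 0.49 for Chil3, -0.10 to 0.14 for Ier5l, -0.49 to 0.46 for Camp, -0.028 to 0.97 for Cd177, -0.092 to 0.010 for Get1, -0.76 to 0.052 for Klf4 and -0.63 to 0.24 for Egr1. For Ctsg it ranged from -0.59 to -0.29. Of values that kept their direction, those of Mmp8 (0.030 to 2.10) and Retnlg (1.16 to 3.45) moved most. Among the 10 genes counting error was largest for Cebpe, but its Poisson intervals in wild-type replicate 1 (17.1 to 37.8) and PROSER1 KO replicate 3 (69.5 to 106) did not overlap.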

Other observations

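The mast cell and basophil protease gene Mcpt8 lies 14.6 kb from Ctsg on chromosome 14, in the cluster that also holds granzyme genes, and was lower in PROSER1 KO by its group values. It had 242, 206, 163 and 233 normalized counts in the wild-type libraries against 124, 158 and 80.6 in the KO libraries, so that the groups did not overlap (log2 fold change -0.83, adjusted p = 0.280 from limma and 0.0414 from DESeq2, where it passed the threshold). Both genes were set side by side after their values had been seen. Of the 46 other tested genes within 1 Mb of Ctsg, Mcpt8 among them, 0 had an adjusted p under 0.05 in limma, 6 had an unadjusted p under 0.05 (9.73% of all tested genes did), 29 were lower in PROSER1 KO, and the median log2 fold change was -0.03.

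Other mast cell and basophil genes with large differences were Il1rl1, the receptor of interleukin 33 (log2 fold change -0.84, adjusted p = 0.396 from limma), Prss34 (-0.62, 0.709) and Hdc, which makes histamine (-0.33, 0.680), all with overlapping groups. The carboxypeptidase gene Cpa3, named outside the rule because it went the other way, had normalized counts of 600.0, 736, 724 and 589 in the wild-type libraries against 749, 780.2 and 792 in the KO libraries. Of the monocyte and macrophage genes, C1qa (0.94, adjusted p = 0.547 from limma), Vcam1 (0.87, 0.528) and Adgre1 (-0.52, 0.700) had the largest differences besides Ms4a6c, with overlapping groups.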
